A study of Mus musculus with 8 samples.

Results

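Mitochondrial ribosomal protein genes encode the protein part of the ribosome that works inside mitochondria. They were taken as every protein-coding gene of the count table whose symbol begins with Mrpl or Mrps followed by a digit, which gave 78 of 26930 gene identifiers. Of these, 49 belong to the large subunit (Mrpl) and 29 to the small subunit (Mrps), and 77 had enough counts to be tested. The exception was Mrpl53, which had at most 1 read in a library and shares 88.0% of its exon sequence with the predicted gene Gm42688 on the same strand. The 4 processed pseudogenes of the family in the table (Mrpl23-ps1, Mrpl48-ps, Mrps36-ps1 and Mrps36-ps2) were left out and had 0 to 24 counts per library. Subunits are assigned by symbol, although structures of the ribosome place the products of Mrps18a and Mrps30 in the large subunit, and the Mrps36 protein is now regarded as a component of the 2-oxoglutarate dehydrogenase complex.

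The mitochondrial ribosome translates the few messages that mitochondrial DNA encodes, which are core subunits of the respiratory chain and of ATP synthase. All of its proteins are encoded in the nucleus, made in the cytosol and imported, and they assemble on ribosomal RNAs transcribed from mitochondrial DNA. Many of them have a counterpart in the bacterial ribosome, while others exist in mitochondria alone. Myeloid-derived suppressor cells (MDSCs) are immature myeloid cells that restrain T cells, and they draw energy from respiration as well as from glycolysis.

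RNA was sequenced from MDSCs grown from the bone marrow of C57BL/6 mice with GM-CSF and IL-6, each at 40 ng/ml, and moved into medium conditioned by the mouse prostate tumour line TRAMP-C1 on day 4. Both groups passed through this conditioned medium, and the labels describe the cells of both as senescent-like, so that no cells outside that state were compared here. The untreated group has 4 libraries, and the treated group has 4 libraries from cells given Romidepsin, a histone deacetylase inhibitor, at 0.5 µM for 6 h. The comparison asks what the inhibitor changes in the mRNA of these cells. The cells are bulk cultures, and in bulk RNA fewer cells of a type and less RNA per cell cannot be told apart. The labels name no separate animals or cultures, and the p-values therefore reflect only how these libraries vary, which may be technical.

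Total counts per library ranged from 12996892 to 23176949, untreated 4 being the deepest. All 9 MDSC and myeloid markers examined were detected, among them Itgam (CD11b) at a CPM (count relative to library size, after the TMM scaling described below) of 407 to 902 in untreated and 168 to 712 CPM in treated libraries. Their summed level was 6887 to 11263 CPM in untreated and 895 to 5494 CPM in treated libraries, and 1 of the 9 fell, or 4 with a replicate block. Over all genes tested, 16.2% fell, or 20.8% with the block. Treated 3 and treated 4 lay at 5494 and 5188, against 895 and 1389 in treated 1 and treated 2. Over all genes tested, the mean correlation of treated 3 was 0.934 with untreated libraries and 0.910 with the other treated ones. Summed B cell markers (5 of 5 tested) were at 82.9 to 279 CPM in untreated and 17.5 to 77.7 in treated libraries, and 4 of them fell, or 5 with the block, beside the same 16.2% and 20.8% of all genes. Summed T and NK cell markers stayed at or under 8.67 CPM. Summed stromal markers were at 2.76 to 7.35 CPM in 6 libraries, but reached 46.8 CPM in untreated 2 and 157 CPM in treated 2. Mast cell and basophil markers summed to 10.5 to 26.0 CPM and dendritic cell markers to 4.10 to 16.7 CPM, and in both lists the groups overlapped. The part of these cell types in the results below was not tested.

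After Romidepsin, single members moved in both directions, Mrpl49, Mrpl55 and Mrps22 upwards and Mrpl54, Mrpl27 and Mrpl11 downwards, and the family's median stayed near that of all genes. In the reported fit, 13 of the 77 genes rose and 6 fell at an adjusted p under 0.05, and 58 did not pass. Libraries were scaled with edgeR's TMM factors (from a trimmed mean of M-values), which assumes that most genes do not differ. Over all 12852 genes tested, 36.5% were called, 20.3% as higher and 16.2% as lower, beside 16.9% and 7.79% of the members. In the large subunit 9 of 48 rose and 5 fell, and in the small subunit 4 of 29 rose and 1 fell. The median log2 fold change (treated over untreated) was 0.09 in the large subunit and 0.08 in the small, beside 0.01 over all genes. The groups did not overlap in 13 members that were higher and 6 that were lower, where 18.7% and 16.5% of all genes did the same (35.2% in either direction).

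**Figure D1:**
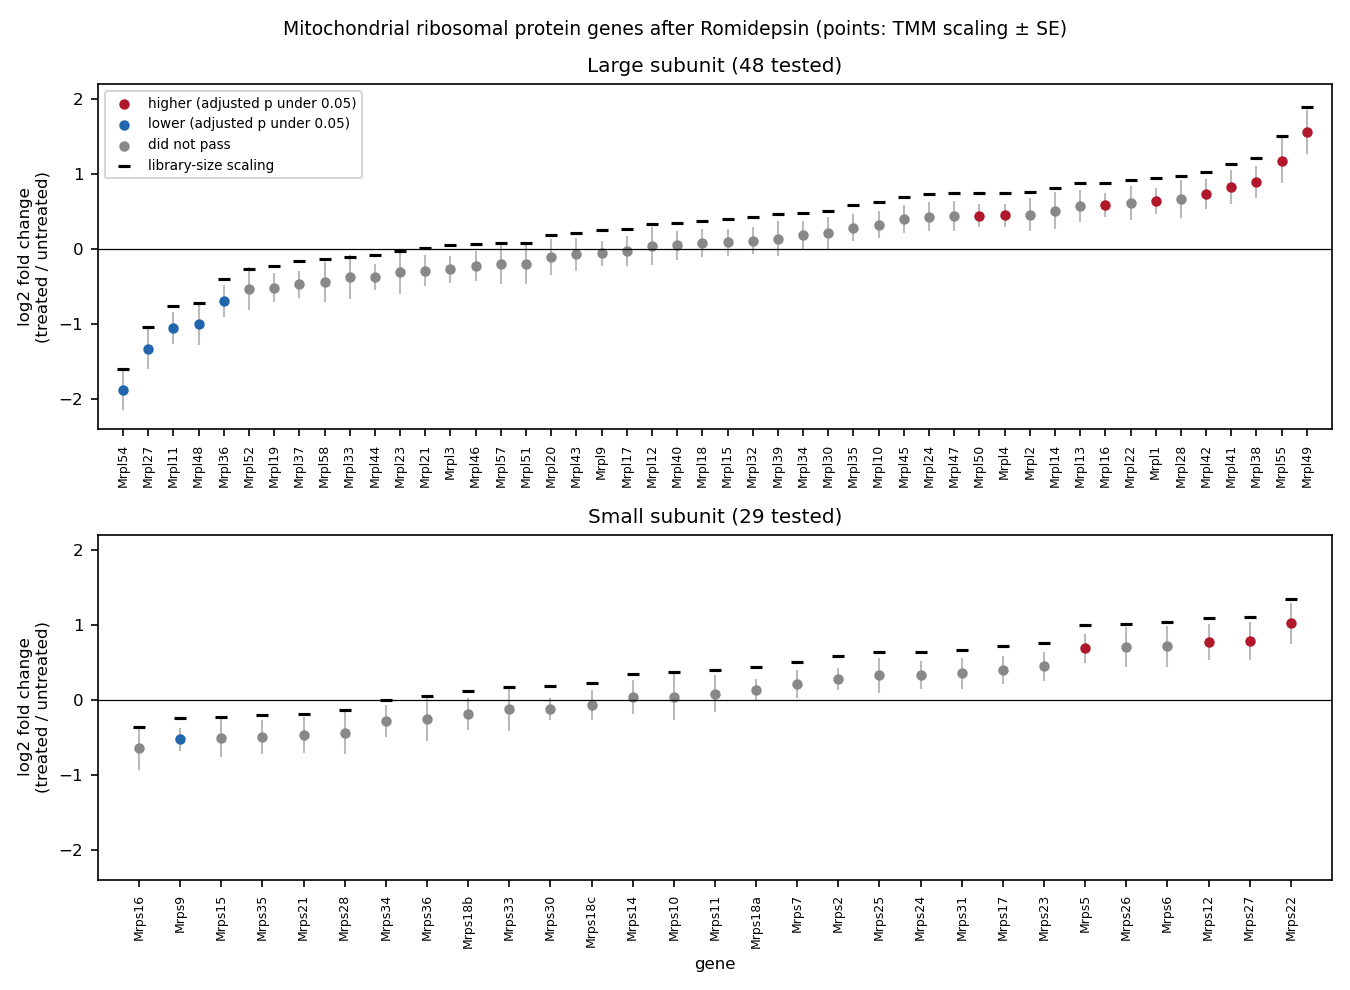
Log2 fold change of each tested member after Romidepsin, large subunit above and small subunit below, ordered by value. Points give the TMM-scaled estimate with its SE, coloured by call, and dashes give the same gene with library size alone. In both subunits most points lie between -1 and 1, and the dashes sit above the points.

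The largest rise was that of Mrpl49, a large subunit protein with no bacterial counterpart. Its level was 32.8, 28.8, 31.2 and 21.7 CPM in untreated 1 to 4, and 117, 99.4, 41.9 and 80.4 CPM in treated 1 to 4. The groups did not overlap, and treated 3 was the lowest treated library. Mrpl49 was 2.96-fold higher in treated cells (log2 fold change 1.57 ± 0.30 SE, edgeR adjusted p = 0.00548), and it was higher in each of 4 same-numbered pairs. Its exons share 91 of 1876 bases with Syvn1 on the opposite strand, and Syvn1 itself rose (0.52 ± 0.14, adjusted p = 0.0187). The part of such shared reads was not tested.

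Mrpl55, another large subunit protein, was at 20.6, 16.9, 18.0 and 9.72 CPM in untreated and at 44.1, 45.3, 21.5 and 37.3 CPM in treated libraries. Here too the groups did not overlap, although treated 3 lay only just above untreated 1. The difference was 2.28-fold (log2 1.19 ± 0.30, adjusted p = 0.0151). Mrpl38 builds the central protuberance, the crest of the large subunit that faces the small one. Its level was 25.4, 26.2, 21.7 and 20.2 CPM in untreated and 52.5, 47.1, 28.3 and 46.7 CPM in treated libraries, without overlap, a rise of 1.87-fold (0.90 ± 0.21, adjusted p = 0.0119). Mrpl41 went from 23.7, 21.1, 17.5 and 15.5 CPM to 45.02, 30.04, 24.7 and 38.3 CPM, again without overlap and again with treated 3 lowest (0.83 ± 0.23, adjusted p = 0.0216). Its call ended when treated 1, untreated 3 or treated 4 was left out (adjusted p up to 0.0642).

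In the small subunit the rises were those of Mrps22, Mrps27, Mrps12 and Mrps5. Mrps22, mutated in human mitochondrial disease, was at 12.9, 14.8, 13.2 and 11.2 CPM in untreated and at 34.5, 31.5, 13.6 and 25.4 CPM in treated libraries. Treated 3 fell inside the untreated range, so the groups overlapped through that library. The fold change was 1.02 ± 0.28 (log2, adjusted p = 0.0210), and the call ended without treated 1, treated 2, untreated 3 or untreated 4 (adjusted p up to 0.0607). Mrps27 carries pentatricopeptide repeats, a fold that binds RNA in other proteins. Its level was 18.1, 14.2, 14.5 and 13.4 CPM in untreated and 31.4, 33.9, 15.4 and 22.9 CPM in treated libraries, with treated 3 again inside the untreated range. Mrps27 rose by 0.78 ± 0.26 (adjusted p = 0.0410), a call that held without untreated 1 or treated 3 and ended without any of the other 6 libraries (adjusted p up to 0.108).

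Mrps12, the counterpart of the bacterial S12 protein at the decoding centre, was at 20.6, 18.6, 17.8 and 15.5 CPM in untreated and at 42.9, 33.7, 19.6 and 27.0 CPM in treated libraries. The overlap was again made by treated 3, which lay below untreated 1. Its rise (0.76 ± 0.24, adjusted p = 0.0356) passed in 1 of the 8 fits that each leave out a library, the fit without treated 3, and in the others the adjusted p reached 0.101. Mrps5 rose by 0.68 ± 0.19 (adjusted p = 0.0232). The rest of the members that rose were the large subunit genes Mrpl42 (0.74 ± 0.20), Mrpl1 (0.64 ± 0.17), Mrpl16 (0.59 ± 0.16), Mrpl4 (0.46 ± 0.16) and Mrpl50 (0.45 ± 0.15), all on the log2 scale and all without overlap between the groups. Mrpl4 and Mrpl50 kept the call in 1 and 2 of the 8 leave-one-out fits (adjusted p up to 0.106 and 0.115) and lost it with a replicate block (adjusted p = 0.0733 and 0.0746). Mrps5 and Mrpl1 kept it in 3 of the 8 fits and Mrpl42 and Mrpl16 in 5, and in these 4 genes the adjusted p reached at most 0.0695.

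Mrpl54, a large subunit protein with no bacterial counterpart, showed the largest fall. It stood at 24.1, 28.2, 24.99 and 15.4 CPM in untreated and at 5.51, 5.02, 9.07 and 5.76 CPM in treated libraries. All treated libraries lay below all untreated ones. The level was 3.66-fold lower after Romidepsin (log2 fold change -1.87 ± 0.27, adjusted p = 0.00218). Mrpl27 is the counterpart of bacterial L27, which sits beside the peptidyl transferase centre. It went from 26.9, 37.3, 35.7 and 16.6 CPM to 11.3, 9.53, 13.8 and 11.8 CPM, without overlap, and was 2.51-fold lower (-1.33 ± 0.27, adjusted p = 0.00690). Mrpl11, at the base of the stalk where translation factors dock, went from 28.5, 30.9, 28.6 and 17.3 CPM to 14.5, 11.6, 12.6 and 12.3 CPM. That difference was 2.06-fold (-1.05 ± 0.21, adjusted p = 0.00710), and the lowest untreated library, untreated 4, was still above every treated one.

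Mrpl48, of the central protuberance, was at 22.7, 17.1, 19.6 and 11.8 CPM in untreated and at 10.5, 6.54, 11.2 and 7.31 CPM in treated libraries, and the groups stayed apart by a narrow margin. It fell by 0.999 on the log2 scale (SE 0.27, adjusted p = 0.0202), and the call ended without treated 2, untreated 3 or treated 4 (adjusted p up to 0.0606). Its pseudogene Mrpl48-ps had 5 to 24 counts per library, and 708 of the 8152 exon bases of Mrpl48 itself lie in Rab6a on the opposite strand. Mrpl36, the counterpart of a small zinc-binding protein of bacteria, fell by 0.68 (SE 0.21, adjusted p = 0.0319), from 39.0, 44.4, 40.9 and 25.4 CPM to 24.3, 18.2, 26.7 and 23.9 CPM, with untreated 4 inside the treated range. Mrps9 was the only small subunit gene to fall, by 0.53 (SE 0.15, adjusted p = 0.0226), from 48.4, 45.5, 44.7 and 36.7 CPM to 31.2, 27.0, 33.6 and 29.4 CPM without overlap. Mrpl36 and Mrps9 each passed in 2 of the 8 leave-one-out fits (adjusted p up to 0.0826 and 0.0680).

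All 19 called members kept their direction in each of the 8 fits that leave out a library. The call stood in every leave-one-out fit for 6 of the 19, which were Mrpl49, Mrpl55 and Mrpl38 among those that rose and Mrpl54, Mrpl27 and Mrpl11 among those that fell. All 6 encode large subunit proteins, as do 48 of the 77 tested members, and a difference between the subunits was not tested. Dap3 and Ptcd3, small subunit proteins outside the Mrp series described below, also kept their calls in all 8 fits. When both libraries numbered 4 were removed together, an alternative chosen after seeing the data, the count was Mrpl49 alone upwards and 7 members downwards (11.9% and 5.32% of all genes), and Mrpl55 (adjusted p = 0.0650) and Mrpl38 (adjusted p = 0.0713) no longer passed.

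**Figure D2:**
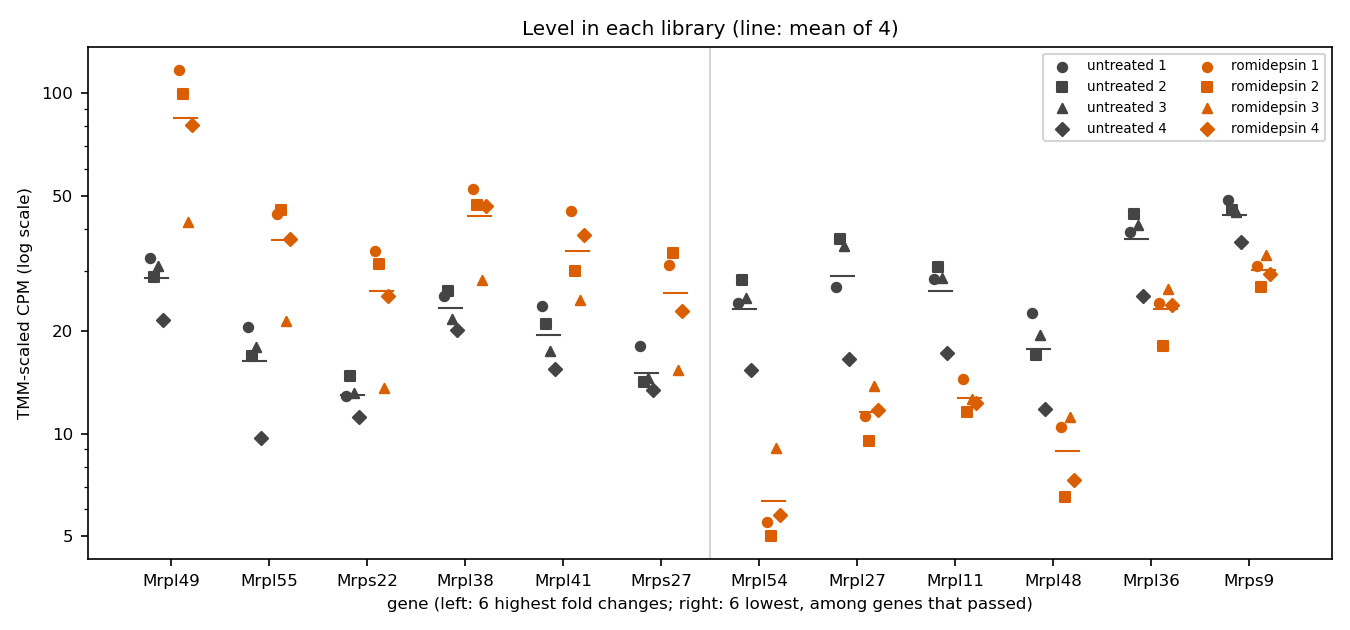
TMM-scaled CPM, on a log axis, of the 6 highest and 6 lowest fold changes among members that passed, with 1 symbol per library and a line at each group's mean of 4. Treated 3 (romidepsin 3) is the lowest treated library in all 6 genes on the left, and untreated 4 is the lowest untreated library in all 12.

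Of 3 structural regions of the large subunit, the central protuberance and the stalk held genes that passed. Of 4 central protuberance genes examined, which are not all of that region, Mrpl38 rose and Mrpl48 fell. Mrpl40 (0.05 ± 0.20) and Mrpl46 (-0.23 ± 0.20) did not pass. Of 3 tested stalk genes, Mrpl11 fell, while Mrpl10 (0.33 ± 0.18) and Mrpl12 (0.04 ± 0.25) did not pass. Mrpl12 also binds the mitochondrial RNA polymerase, and its level was 61.6, 48.8, 39.6 and 28.6 CPM in untreated and 58.9, 46.8, 35.4 and 42.6 CPM in treated libraries. Around the exit tunnel, where the new peptide leaves, 0 of 6 genes passed with edgeR, against 1 at an unadjusted p under 0.05 and 1 each with DESeq2 and limma-voom. Their median was 0.28.

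With TMM and all libraries, the most abundant members per length of transcript did not pass. In untreated cells these were Mrpl52 (142 CPM per kb), Mrpl30 (138) and Mrpl33 (123) in the large subunit, and Mrps21 (98.8), Mrps17 (53.8) and Mrps15 (50.1) in the small. The family median was 20.7 CPM per kb, and tested members ranged from 4.29 to 142. In CPM, Mrpl52 was at 80.4, 72.7, 60.2 and 36.2 in untreated and at 44.6, 26.4, 55.3 and 47.3 in treated libraries, with overlap (log2 difference -0.52 ± 0.29). Mrps21 had a difference of -0.48 ± 0.24 and Mrps15 of -0.52 ± 0.25. Mrps17 was at 47.6, 48.8, 46.4 and 43.8 CPM in untreated and at 69.7, 67.5, 40.6 and 67.2 CPM in treated libraries. Treated 3 was below every untreated library and the other treated ones were above all of them, and Mrps17 did not pass with TMM and all libraries (0.39 ± 0.19, adjusted p = 0.121). With library size alone Mrps17 was higher, as were 30.2% of all genes. With TMM and without treated 3 it was also higher (0.51, adjusted p = 0.0108).

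The mitochondrial ribosome holds several homologues of the bacterial S18 protein. The differences were 0.13 ± 0.15 for Mrps18a, -0.19 ± 0.21 for Mrps18b and -0.07 ± 0.20 for Mrps18c, and none passed (adjusted p = 0.503, 0.491 and 0.800). Other members known from human disease also did not pass, with -0.26 ± 0.18 for Mrpl3, -0.37 ± 0.18 for Mrpl44 and 0.21 ± 0.19 for Mrps7. Fold change had little relation to level, transcript length or gene span. Across the 77 genes, which share libraries and are not independent, Spearman's rho was -0.11 with the untreated level, 0.08 with transcript length and 0.002 with gene span.

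The balance of the subunits is a ratio within each library and does not depend on scaling. Reads of large subunit genes outnumbered those of small subunit genes 2.55, 2.49, 2.502 and 2.36 times in untreated 1 to 4, and 2.60, 2.39, 2.78 and 2.56 times in treated 1 to 4. The group means were 2.48 ± 0.08 and 2.58 ± 0.16 (SD, n = 4), and the values overlapped. Treated 3 had the highest ratio and untreated 4 the lowest.

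Summed over the family, members took 0.273%, 0.259%, 0.215% and 0.161% of all counts in untreated 1 to 4 and 0.386%, 0.320%, 0.244% and 0.295% in treated 1 to 4. As shares of library size this gives 2267 ± 505 CPM in untreated and 3113 ± 587 CPM in treated libraries (SD, n = 4), and treated 3 (2444) lies among the untreated values. With TMM the sums were 2835, 2821, 2568 and 1800 CPM in untreated and 3238, 2690, 2491 and 2741 CPM in treated libraries. Those means were 2506 ± 487 and 2790 ± 318, a difference smaller than the spread. Untreated 4 stands out as the lowest library of the 8, and without it the untreated mean was 2741 ± 150 CPM (n = 3).

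**Figure D3:**
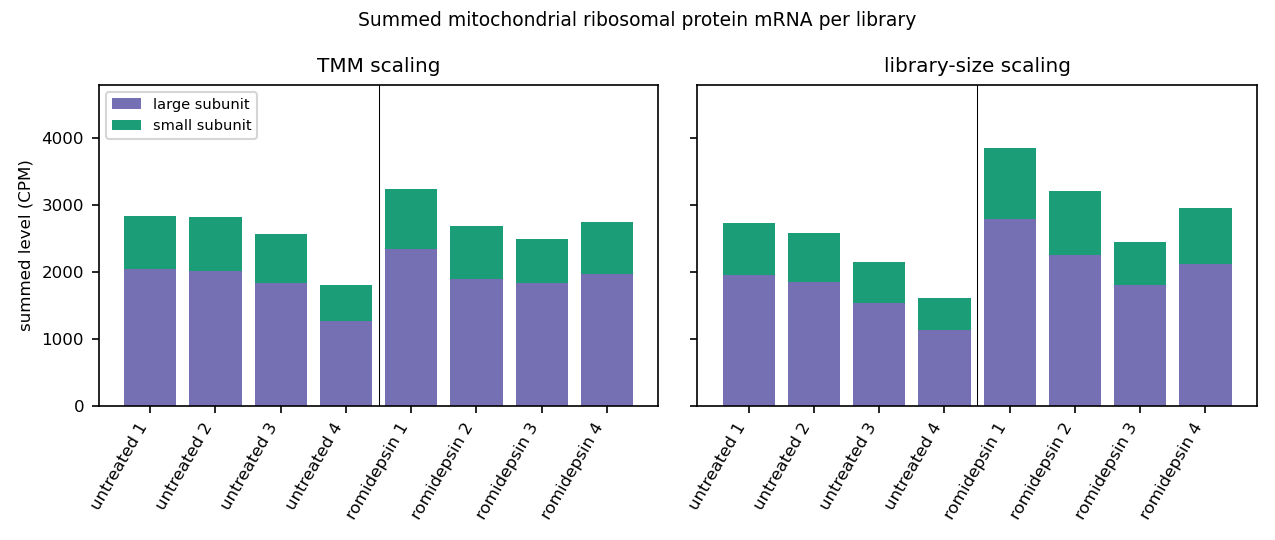
Summed CPM of large subunit (lower block) and small subunit (upper block) genes in each library, with TMM scaling on the left and library size alone on the right. Untreated 4 is the lowest bar in both panels, and the treated bars are taller relative to the untreated ones on the right.

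Library size alone turned the family towards more genes called higher. The TMM factors were 0.837 to 0.964 in untreated and 0.983 to 1.19 in treated libraries, so the choice between the scalings shifts every gene the same way. With library size, 30 members were higher and 3 lower, against 40.8% called over all genes, 30.2% as higher and 10.7% as lower. In the large subunit 19 were higher and 3 lower, and in the small subunit 11 and 0. At an unadjusted p under 0.05 in the same edgeR fit, the small subunit had 14 higher and 0 lower. In that subunit limma-voom with TMM called 1 lower, and so did DESeq2 with its own size factors. The median log2 fold change became 0.39 for the members and for each subunit, and 0.30 over all genes. Relative to the median of all genes, the members lay 0.09 higher with library size and 0.08 higher with TMM. The groups did not overlap in 20 members that were higher and 2 that were lower with library size, against 25.5% and 10.6% of all genes (36.1% in either direction).

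All 13 members that rose with TMM were also higher with library size. Of the 6 that fell, Mrpl11, Mrpl27 and Mrpl54 were also lower, while Mrpl36 (adjusted p = 0.156), Mrpl48 (adjusted p = 0.0656) and Mrps9 (adjusted p = 0.262) no longer passed. A further 17 members, 10 of the large and 7 of the small subunit, were higher with library size alone. Mrpl24 was among them, at 102, 119, 106 and 66.8 CPM in untreated and 157, 121, 125 and 130 CPM in treated libraries with TMM. The groups did not overlap, yet Mrpl24 did not pass with TMM (0.44 ± 0.20, adjusted p = 0.107) and did with library size (0.74, adjusted p = 0.0248). It is named here after its values were seen. Scaling to 20 housekeeping genes gave 39 higher and 1 lower, beside 39.4% and 5.44% of all genes, with the median of all genes at 0.73 and that of the members at 0.87. Whether these 20 genes form a steady reference was not tested, since their own changes depend on the scaling chosen. With TMM in edgeR, 2 of them were higher and 7 lower at an unadjusted p under 0.05. DESeq2 called 2 higher and 7 lower, where 21.9% and 21.7% of all genes were called.

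The balance of higher and lower calls changed with untreated 4. It was the lowest untreated library in 74 of the 77 members, and its median log2 deviation from the untreated mean was -0.46, against 0.07 to 0.19 in untreated 1 to 3. Without it, 8 members were higher and 13 lower, where 19.5% and 13.6% of all genes were called, and the median log2 fold change was -0.06 (-0.04 in the large subunit and -0.08 in the small). All 8 and 6 of the 13 were among those called with every library. The other 7 were Mrpl19, Mrpl44, Mrpl58, Mrps15, Mrps16, Mrps21 and Mrps35, and of the 13 that rose Mrpl4, Mrpl50, Mrps12, Mrps22 and Mrps27 no longer passed (adjusted p = 0.0680, 0.0805, 0.0773, 0.0508 and 0.0859). With library size and without untreated 4, likewise chosen after the data were seen, there were 17 higher and 6 lower members, beside 27.9% and 8.45% of all genes. Between same-numbered libraries the median log2 difference was 0.18, -0.08, -0.09 and 0.55 for numbers 1 to 4, so the largest value came from the pair that holds untreated 4.

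In some further fits the members' share also exceeded that of all genes. With library size and a replicate block 41.6% of members were higher, against 33.2% of all genes, and with library size and without treated 3 the shares were 46.75% and 36.9%. Without both libraries of number 4, 9.09% of members were lower, against 5.32% of all genes.

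**Figure D4:**
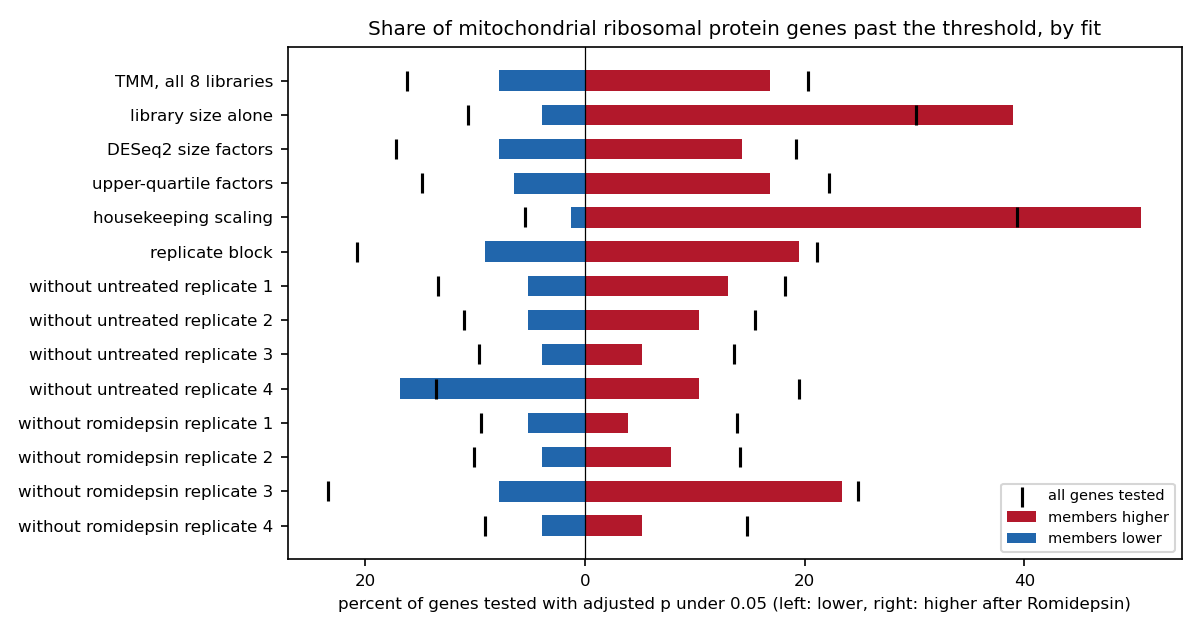
Percent of the tested members called higher (right) or lower (left) in each of 14 fits, with ticks for the same percentages over all genes tested. Among these fits the bars pass the ticks for higher genes with library size and with housekeeping scaling, and for lower genes without untreated replicate 4.

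The same library was low in other families of this kind. Summed cytosolic ribosomal protein genes were at 50695, 44218, 34506 and 22738 CPM in untreated 1 to 4 and at 27279 to 38247 CPM in treated libraries. Nuclear subunits of oxidative phosphorylation were at 8745, 8664, 7752 and 5607 CPM and at 7066 to 9011 CPM. Untreated 4 was the lowest untreated library in both. Of 80 tested cytosolic ribosomal protein genes 1 rose and 0 fell (median -0.25), with 2 at an unadjusted p under 0.05 in edgeR, while DESeq2 called 1 higher and 3 lower and limma-voom 1 and 0. Without untreated 4, 1 of 81 was higher and 9 were lower. Of 77 oxidative phosphorylation genes 5 rose and 5 fell (median -0.06), and without untreated 4, 1 of 78 was higher and 16 were lower. Over all genes tested, 20.3% rose and 16.2% fell in the reported fit, and 21.9% and 21.7% with DESeq2. Without untreated 4, 19.5% of all genes were higher and 13.6% lower. Among the counts of these 2 lists, only the 16 lower oxidative phosphorylation genes exceeded the share of all genes.

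**Figure D5:**
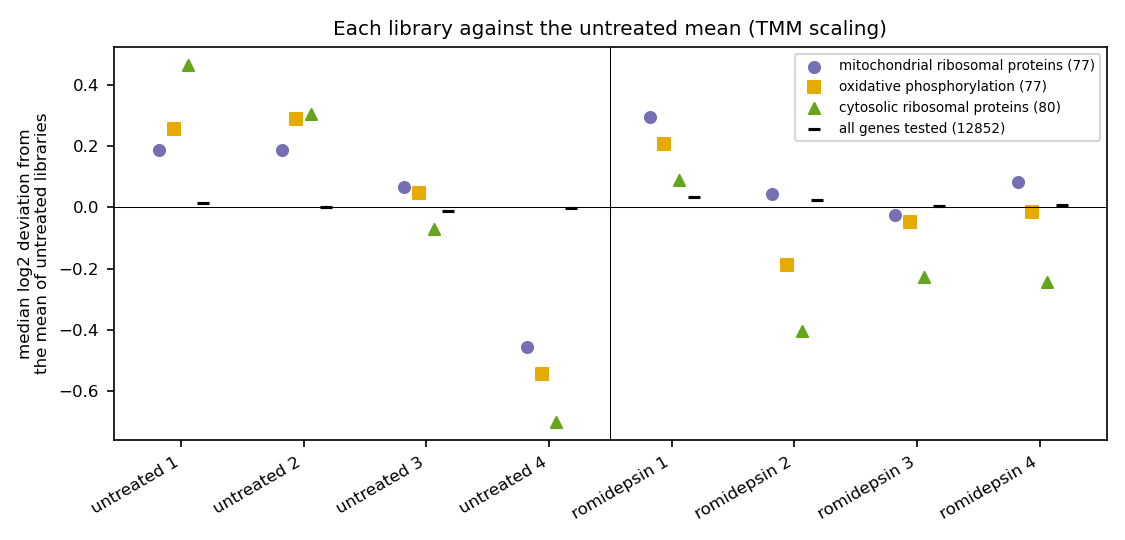
Median log2 deviation of each library from the mean of the 4 untreated libraries, for mitochondrial ribosomal protein, oxidative phosphorylation and cytosolic ribosomal protein genes and for all genes tested. Untreated 4 lies at -0.46, -0.55 and -0.70 for the 3 families, and the median over all genes stays close to 0 in every library.

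Treated 3 worked in the other direction on the genes that rose. It was the lowest treated library in 39 members, treated 2 in 30, and treated 1 was the highest in 48. Without treated 3, 18 members were higher and 6 lower, beside 24.8% and 23.4% of all genes, and in the small subunit 7 were higher and 1 lower.

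The protein machinery around the mitochondrial ribosome was examined in lists, whose counts stand beside 20.3% higher and 16.2% lower over all genes. Among assembly factors, translation factors, transfer RNA synthetases and genes of mitochondrial DNA upkeep, the share that rose and the share that fell were each below these values. Of the 5 ribosomal proteins named outside the Mrp series, Dap3 and Ptcd3 rose. Dap3, a GTP-binding protein of the small subunit, went from 61.2, 62.1, 47.2 and 42.1 CPM to 134, 123, 69.9 and 99.0 CPM (1.002 ± 0.23, adjusted p = 0.0112). Ptcd3, a small subunit protein with pentatricopeptide repeats, went from 15.7, 14.0, 15.9 and 19.1 CPM to 48.7, 60.5, 20.5 and 34.6 CPM (1.34 ± 0.31, adjusted p = 0.0109). The groups did not overlap in either gene, and both calls held in all 8 leave-one-out fits.

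Of 28 assembly factors, 3 rose and 3 fell (median 0.14). Noa1, a GTPase needed for the small subunit, went from 17.6, 12.8, 11.6 and 13.15 CPM to 57.0, 64.5, 23.8 and 52.9 CPM (1.85 ± 0.30, adjusted p = 0.00311). Mpv17l2 rose by 1.21 ± 0.25, and Mrm1, which methylates the large ribosomal RNA, fell by 0.72 (SE 0.20, adjusted p = 0.0213). The call of Mrm1 ended without untreated 1, treated 1, treated 2, untreated 3 or treated 4 (adjusted p up to 0.0605). Of 15 translation factors, 2 rose and 1 fell (median 0.24). Mtfmt, which formylates the initiator methionine, rose by 0.71 ± 0.17 (adjusted p = 0.0120), and the elongation factor Tsfm rose by 0.70 ± 0.21, a call that held only without untreated 1 or treated 3 (adjusted p up to 0.0914 without any other library). Its partner Tufm (0.29 ± 0.15) and the RNA-binding protein Lrpprc (0.70 ± 0.33) did not pass in the reported fit. Both were higher with library size alone, as were 30.2% of all genes. Lrpprc was also higher without treated 3, as were 24.8% of all genes. Of 20 genes that charge mitochondrial transfer RNAs, 3 rose and 3 fell (median 0.09), among them Nars2 (1.80 ± 0.31) and Mars2 (1.49 ± 0.22) upwards and Sars2 (-1.30 ± 0.28) downwards.

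Genes of mitochondrial DNA upkeep and transcription rose in 2 and fell in 1 of 11 cases. The mitochondrial RNA polymerase Polrmt went from 22.5, 25.7, 22.8 and 23.9 CPM to 43.5, 50.2, 26.7 and 38.2 CPM (0.74 ± 0.20, adjusted p = 0.0202). Its call ended without treated 1, treated 2 or untreated 3 (adjusted p up to 0.0587). The mitochondrial transcription factor Tfam was at 32.6 to 39.0 CPM in untreated and 35.0 to 38.9 CPM in treated libraries (0.03 ± 0.13, adjusted p = 0.883).

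Among 10 regulators of mitochondrial biogenesis, 1 rose and 5 fell (median -0.46). Myc, which drives ribosome production in growing cells, went from 34.1, 17.8, 6.25 and 8.03 CPM to 3.498, 4.51, 5.10 and 3.43 CPM (-1.997 ± 0.51, adjusted p = 0.0166). The untreated libraries differed widely, and the groups did not overlap. Without treated 4 the adjusted p of Myc was 0.0502. Gabpb2, a subunit of the ETS factor GABP, fell by 1.66 (SE 0.29, adjusted p = 0.00391), while its DNA-binding partner Gabpa (-0.43 ± 0.17, adjusted p = 0.0748) and the activator Nrf1 (-0.42 ± 0.17, adjusted p = 0.0781) did not pass with edgeR. DESeq2 called both lower (adjusted p = 0.0475 and 0.0448), and with it 1 of the 10 regulators was higher and 7 were lower, where 21.9% and 21.7% of all genes were. The coactivator gene Ppargc1a rose from 0 to 0.248 CPM in untreated libraries to 0.803 to 1.62 CPM in treated ones, which is a level of few reads. With library size alone, 1 of these 10 genes was higher and 2 were lower.

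Over the 7 lists together, 13 genes rose and 13 fell. The lists held 5, 28, 15, 20, 11, 10 and 7 genes tested in the reported fit. With library size alone 26 were higher and 3 lower, beside 30.2% and 10.7% of all genes. Without treated 3, 20 were higher and 14 lower, beside 24.8% and 23.4% of all genes. The messages that the mitochondrial ribosome translates did not pass with TMM. Of 9 mitochondrially encoded mRNAs counted, 7 were tested, and edgeR called 0 in either direction, with 0 at an unadjusted p under 0.05 and 0 called by DESeq2 and limma-voom. Their summed level was 17588, 16729, 8433 and 14984 CPM in untreated and 23208, 16891, 12406 and 18028 CPM in treated libraries. The libraries numbered 3 were the lowest of each group, and the groups overlapped. Within same-numbered pairs the treated library was higher in 4 of 4, by 0.40, 0.01, 0.56 and 0.27 on the log2 scale for numbers 1 to 4. A two-sided exact permutation test over the signs of these differences, chosen after the values were seen, gave p = 0.125, the smallest that 4 pairs allow. A replicate block called 0 of the 7 with TMM and 6 higher with library size, where 33.2% of all genes were called higher.

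Members often start next to a gene that runs the other way. A start of another protein-coding gene on the opposite strand, at most 1000 bp upstream or 200 bp inside, was found for 23 of 78 members (29.5%), against 12.6% of 11741 tested protein-coding genes. Of these 23 members, 6 rose and 3 fell, where 20.3% and 16.2% of all genes did. Among pairs with both genes tested, 7 had neither gene called. In 1 pair both genes rose, and in 2 the member rose and its neighbour fell. In the remaining pairs a single gene was called. Mrps12 rose and Sars2, a synthetase whose start lies 172 bp away, fell, from 10.6, 9.83, 7.89 and 8.32 CPM to 4.42, 4.26, 3.91 and 2.26 CPM (-1.30 ± 0.28, adjusted p = 0.00894). Mrpl41 rose and Pnpla7, 935 bp away, fell (-1.87 ± 0.39, adjusted p = 0.00756). Mrps5 and Zfp661, 128 bp apart, both rose. Beside Mrpl49, the gene Fau, which encodes a cytosolic ribosomal protein and starts 59 bp away, was at 637, 534, 439 and 293 CPM in untreated and 372, 251, 362 and 311 CPM in treated libraries and did not pass (-0.55 ± 0.27, adjusted p = 0.125). Beside Mrpl54, Apba3, 26 bp away, did not pass either (-0.32 ± 0.13, adjusted p = 0.0844). In these 2 pairs the member passed and its neighbour did not, which is no test of the difference between them.

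The stretches below are shown because they are the upstream sequence of members that passed, and for Mrpl49, Mrps12 and Mrps27 they fill the gap to the neighbour on the other strand. They are RefSeq sequence of GRCm38.p6, on the strand of the named gene, 5′ to 3′, and hold no annotated exon. Capitals mark the core CCGGAAGT of ETS factors such as GABP, on either strand, in Mrps22 and Mrps27, and the core TGCGCA of the factor NRF1 in Mrpl11.
Mrpl49 (chr19:6057786-6057843, minus strand, between Mrpl49 and Fau): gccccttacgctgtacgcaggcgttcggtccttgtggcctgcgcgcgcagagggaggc
Mrps12 (chr7:28741822-28741991, minus strand, between Mrps12 and Sars2): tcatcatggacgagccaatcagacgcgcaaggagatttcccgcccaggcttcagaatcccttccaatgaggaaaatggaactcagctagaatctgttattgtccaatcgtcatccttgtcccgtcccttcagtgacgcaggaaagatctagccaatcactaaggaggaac
Mrps27 (chr13:99344706-99344785, plus strand, between Mrps27 and Ptcd2): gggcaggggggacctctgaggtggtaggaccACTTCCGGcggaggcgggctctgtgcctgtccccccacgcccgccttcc
Mrpl55 (chr11:59202386-59202485, plus strand): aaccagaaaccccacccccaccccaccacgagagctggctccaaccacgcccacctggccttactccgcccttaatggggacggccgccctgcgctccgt
Mrps22 (chr9:98601680-98601929, minus strand): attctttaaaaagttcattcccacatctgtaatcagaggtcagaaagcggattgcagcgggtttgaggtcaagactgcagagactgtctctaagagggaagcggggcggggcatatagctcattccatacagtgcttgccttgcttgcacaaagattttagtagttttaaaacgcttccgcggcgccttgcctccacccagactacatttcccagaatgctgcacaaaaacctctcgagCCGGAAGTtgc
Mrpl11 (chr19:4962056-4962146, plus strand): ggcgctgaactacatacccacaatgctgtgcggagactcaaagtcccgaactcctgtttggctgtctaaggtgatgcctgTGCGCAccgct

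Promoters of 300 bases, from 250 before to 50 after the annotated start, were given for 69 of the 78 members and were searched on both strands. The NRF1 core TGCGCA was in 21 of the 69 (30.4%), against 16.3% of 9387 tested protein-coding genes and 8.79% of all 27025 genes with a promoter. The ETS core CCGGAAGT was in 17.4%, against 9.59% and 4.31%, and the core AAGATGGC of the factor YY1 in 17.4%, against 5.49% and 3.19%. The GC box GGGCGG was in 49.3%, against 69.0% and 38.2%, and CCAAT in 39.1%, against 43.3% and 41.1%. The median GC content was 58.0% in members and 60.7% in tested protein-coding genes. Among members with a promoter, the NRF1 core was in 0 of 11 that rose, 3 of 5 that fell and 18 of 52 that did not pass. In the same sets the ETS core was in 2, 2 and 8, and the YY1 core in 4, 1 and 7. The sets are small, and a match describes letters in a window and not a bound site.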

How the data were processed

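Deposited values are whole-number read counts per Ensembl gene from poly(A) RNA of 8 libraries. The submitters' processing notes name GRCm38, the aligner STAR 2.5.2a, DESeq2 and FastQC. How reads were counted, with which annotation and strand setting, is not given in the sources used here, so reads of overlapping genes cannot be told apart. Of the members, 33 share exon sequence with another gene (8 on the same strand, 28 on the opposite strand), among them 5 of the 19 called. Symbols matched 26881 of 26930 identifiers, and coordinates and transcript lengths are those of GENCODE M21 on GRCm38.

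Counts were analysed with edgeR 4.0.16 in R 4.3.3: filterByExpr (12852 genes), TMM, robust two-sided quasi-likelihood F test, Benjamini-Hochberg adjustment over all genes tested, threshold 0.05, no block. Log2 fold changes are treated over untreated with their SE, and CPM values are TMM-scaled unless library size is named. Level per kb uses the median length of protein-coding transcripts. The code was tested on simulated data. Alternatives were library size alone, DESeq2 size factors, upper-quartile and housekeeping scaling (20 genes), no count filter, a mean of at least 10 CPM, DESeq2 1.42.0, limma-voom (limma 3.58.1), a replicate block, and leaving out libraries.

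Libraries with the same number correlated in their deviations from the group means at 0.525, 0.270, 0.457 and 0.171 for numbers 1 to 4, against at most 0.0467 between numbers. The numbers were therefore taken to pair the samples in the replicate block and in same-numbered comparisons. The reported fit does not use this pairing, and its SEs and adjusted p-values are unpaired. The labels do not explain the numbers, so this pairing rests on the correlations.

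Members and lists were chosen with earlier results of these data known. Named genes are the called members with the 6 highest and 6 lowest fold changes, the 3 most abundant per kb in each subunit, up to 4 whose call differed between the scalings, up to 2 called genes per direction of each related list, and a set of disease and regulator genes. Others were named after their values were seen.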

Additional observations from a re-analysis of the deposited data

Results flagged for a closer look

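In 3 of 64 groups of 4 libraries examined, 1 library lay far from the other 3 by Dixon's criterion, which chance alone exceeds in about 1 of 20 groups. Mrpl30 in untreated 4 was at 57.2 CPM, while the other untreated libraries were at 99.4 to 107 CPM. Mrps17 in treated 3 was at 40.6 CPM, while the other treated libraries were at 67.2 to 69.7 CPM. Mrps15 in treated 2 was at 25.3 CPM, while the other treated libraries were at 34.1 to 35.8 CPM. Mrps17 and Mrps15 encode small subunit proteins with bacterial counterparts, and Mrpl30 is a large subunit gene that was among the most abundant per length.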

How the results depend on the processing

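Pairing the samples with a replicate block gave 15 members higher and 7 lower, beside 21.2% and 20.8% of all genes. Mrpl4 and Mrpl50 lost the call, Mrpl13, Mrpl28, Mrps26, Mrps6 and Mrpl19 gained it, and no other member's call changed. Block and library size together gave 32 higher (20 large, 12 small, 0 small lower), related genes at 34 and 3, and medians of 0.39 for the family and 0.38 for the small subunit. Over all genes that fit called 33.2% higher and 14.2% lower. Library size alone gave 30 and 3 (large 19 and 3, small 11 and 0), related genes at 26 and 3, and medians of 0.39, beside 30.2% and 10.7% of all genes. Housekeeping scaling, which called 39.4% and 5.44% of all genes, gave 39 and 1 (large 25 and 1, small 14 and 0), related genes at 44 and 0, and medians of 0.87, 0.87 and 0.90 for the family, the large and the small subunit. It turned Mrpl36 to 0.055, Mrps9 to 0.19 and Fars2 to 0.065, by construction of the scale. Without a count filter no small subunit gene (0) and 7 related genes were lower. Leaving out each library in turn gave 3 to 18 members higher and 3 to 13 lower, while the shares of all genes ran from 13.6% to 24.8% and from 9.07% to 23.4%. These fits gave 3 to 11 and 3 to 8 in the large subunit, 0 to 7 and 0 to 5 in the small, and 10 to 20 and 3 to 14 related genes, with fewer samples in each fit. Without both libraries of number 3, 7 small subunit genes were higher, beside 20.6% of all genes. Of the alternatives chosen after seeing the data, library size without treated 3 gave 36 and 3 (large 22 and 3, small 14 and 0), related genes at 38 and 4, and medians of 0.53, 0.51 and 0.55, beside 36.9% and 15.3% of all genes. Library size without untreated 4 left 4 related genes lower, beside 8.45% of all genes. Leaving out number 4 gave 1 higher member (1 large, 0 small), 2 small subunit genes lower and 5 and 3 related genes, beside 11.9% and 5.32% of all genes. Causes were not tested. A member at 3.85 CPM in untreated cells rests on few reads, and SEs of members ran from 0.15 to 0.31.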
